A study of Mus musculus with 6 samples.

Results

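Lymphoid transcription and chromatin regulators were followed in LSK cells of mice that lack Gfi1 or carry it. The group is 10 genes, Satb1, Ikzf1, Ikzf2, Mef2c, Bcl11a, Notch1, Sox4, Lef1, Ets1 and Myb. Every probe set whose platform annotation gives exactly 1 symbol, and that symbol is 1 of these, was taken. This gave 28 of the 22626 probe sets left after the array controls, and 10 of 12393 named genes. LSK cells are bone marrow cells that lack lineage markers and carry Sca-1 and Kit, a fraction rich in blood stem cells and multipotent progenitors. They were sorted by flow cytometry, RNA was amplified in 2 rounds, and each sample went on 1 single-colour array. The Gfi1 knockout group had 3 arrays and the wild-type group 3 arrays, numbered 5, 7 and 8 in each. The labels give no age, strain, knockout allele, agent or treatment for either group, and do not say whether a sample was 1 mouse or several, and p-values therefore cover only how much these samples vary.

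These 10 genes belong to the network that opens lymphoid programmes in early blood progenitors. Satb1, the Ikaros family and Bcl11a are nuclear proteins that organise or remodel chromatin. Mef2c, Sox4, Ets1 and Myb are sequence-specific transcription factors used in early B and T cell development. Notch1 is the receptor that starts the T cell programme when a ligand binds it, and Lef1 is a nuclear partner of beta-catenin. Gfi1 is a zinc finger repressor that acts in the same stem and progenitor cells.

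The promoters of the called members with an entry in the RefSeq promoter table are shown because these genes were called in the same direction. Whether they share a regulator was not tested. Of the 10 members, 8 had an entry, and Ikzf2 and Ets1 did not. Each sequence is the 250 bases before the most upstream start listed, 5′ to 3′ on the strand of the gene, in build GRCm38.p6. Satb1 is at chr17:51833291-51833540 (minus strand), Mef2c at chr13:83503784-83504033 (plus), Notch1 at chr2:26503823-26504072 (minus) and Sox4 at chr13:28953700-28953949 (minus). Capitals mark the GFI1 core AATC on either strand, where the minus-strand match reads GATT.
Satb1: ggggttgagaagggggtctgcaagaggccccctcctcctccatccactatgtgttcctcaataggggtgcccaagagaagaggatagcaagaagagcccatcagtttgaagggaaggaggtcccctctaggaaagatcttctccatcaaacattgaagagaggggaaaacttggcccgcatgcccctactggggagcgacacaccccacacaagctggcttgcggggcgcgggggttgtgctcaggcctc
Mef2c: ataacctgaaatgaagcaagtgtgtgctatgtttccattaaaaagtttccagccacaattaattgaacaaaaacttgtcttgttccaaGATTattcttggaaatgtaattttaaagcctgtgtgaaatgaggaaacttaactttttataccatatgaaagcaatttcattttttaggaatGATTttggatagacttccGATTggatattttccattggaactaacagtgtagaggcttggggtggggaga
Notch1: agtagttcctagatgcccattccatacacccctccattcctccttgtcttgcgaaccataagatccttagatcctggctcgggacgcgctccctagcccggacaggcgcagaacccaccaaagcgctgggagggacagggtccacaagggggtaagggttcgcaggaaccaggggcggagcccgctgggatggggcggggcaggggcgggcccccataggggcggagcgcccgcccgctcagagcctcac
Sox4: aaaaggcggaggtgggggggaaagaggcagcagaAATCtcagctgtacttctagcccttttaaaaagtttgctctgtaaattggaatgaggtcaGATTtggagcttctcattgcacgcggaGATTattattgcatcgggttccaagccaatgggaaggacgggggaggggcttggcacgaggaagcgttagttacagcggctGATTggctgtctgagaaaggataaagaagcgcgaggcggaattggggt
The core occurred 4 times in the Sox4 window, 3 times in the Mef2c window and 0 times in the windows of Satb1 and Notch1. Satb1 had 5 listed windows, Lef1 4, Mef2c 3 and Ikzf1 2, and only the most upstream was searched. Over the 8 members it was present in 3, the remaining gene being Myb, against 69.8% of 27025 such windows, 1 per gene. G and C made up 33.6% of the Mef2c window, 50.8% for Sox4, 58% for Satb1 and 66% for Notch1. For the other members this share was 62% (Bcl11a) to 82% (Ikzf1). AATC is mostly A and T, and the part of base content in these counts was not tested. The longer GFI1 letters AAATCAC were in 0 of the 8 and in 2.72% of all windows. TGGGAA, the core shared by Ikaros and the Notch partner RBPJ, was in the windows of Bcl11a and Sox4 and in 21.5% of all. The letters CCGGAAG (ETS) and CTTTGAT (TCF and LEF) were in 0 of the 8 and in 7.07% and 3.26% of all. ACAAAG (SOX) was in the Ikzf1 window and in 16.5% of all. Both strands were searched for each motif, and these are letter matches only.

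Of the 7 genes that could be tested, 5 had at least 1 probe set called on the knockout arrays, all of them lower. Satb1, Mef2c, Notch1, Sox4 and Ets1 each had at least 1 probe set that fell, by 1.88-fold to 2.29-fold, while no probe set of Bcl11a or Myb passed the test. Of the 28 probe sets, 21 were bright enough to be tested, and they came from 7 genes. Of these 21, 7 were lower and 0 were higher at an adjusted p under 0.05 (limma, Benjamini-Hochberg over all 13576 probe sets tested). The background of such calls was 2.15% of all tested probe sets lower and 1.45% higher, or 3.6% in either direction. This is a share of probe sets, and the share of all genes with at least 1 call is not given here. By the brightest probe set of each gene, 4 of the 7 genes were lower, Sox4 not among them, and 0 higher. At an unadjusted limma p under 0.05, 13 of the 21 were lower and 0 higher, against 1444 lower and 1258 higher of the 13576. The 21 differences had a median of -0.68 on the log2(signal + 16) scale, against -0.01 over all tested. Below 0 lay 20 of the 21, and 6942 of the 13576. All knockout arrays lay below all wild-type arrays for 13 of the 21, where this holds for 12.2% of all tested probe sets, and above them for 0 of the 21, against 12%. The 10 genes were chosen with earlier results of these data known, so these counts are a description. In bulk RNA, fewer cells of a type and less RNA per cell cannot be told apart.

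The count of 7 changed when single arrays were left out, and so did the 292 lower calls over all tested probe sets. Leaving out knockout 5, knockout 7 or knockout 8 gave 3, 3 and 1 member calls, against 183, 121 and 90 over all tested. Leaving out wild type 5, wild type 7 or wild type 8 gave 2, 1 and 8, against 275, 86 and 271. What part of the change in member calls came from having fewer arrays in the fit was not tested. The member count was 4 with median centring, 2 with no brightness filter and 2 with eBayes without trend. It was again 7 in the fit that paired arrays by number, where 3.4% of all tested probe sets were lower and 2.3% higher. The 1 probe set left was Ets1 1452163_at without knockout 8 and Satb1 1416007_at without wild type 7.

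**Figure D1:**
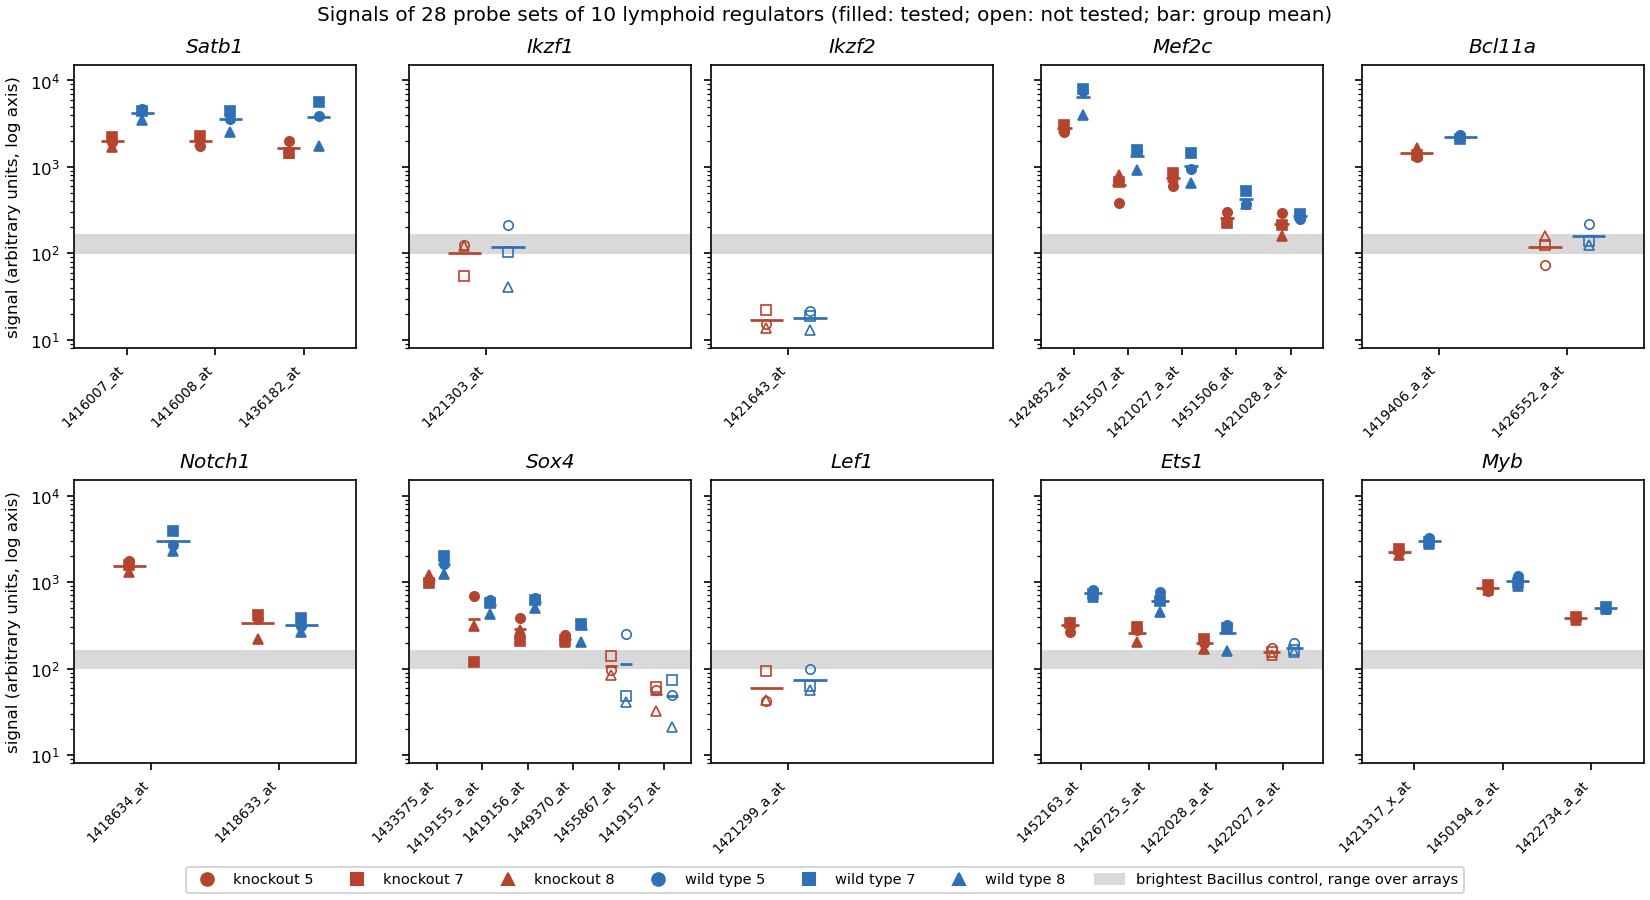
Signals of the 28 probe sets on each of the 6 arrays, on a log axis, with knockout arrays in red to the left of wild-type arrays in blue, group means as bars and open symbols for probe sets too dim to be tested. The brighter probe sets of Satb1, Mef2c and Ets1 lie lower on knockout arrays, while Lef1 and most Ikzf1 points lie in or under the grey range of the brightest Bacillus control and Ikzf2 lies far below it.

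Satb1 folds chromatin into loops by binding AT-rich DNA, and in mice it promotes the lymphoid potential of stem cells. Its probe set 1416007_at gave signals of 1958, 2246 and 1707 on knockout arrays 5, 7 and 8, against 4673, 4440 and 3484 on wild-type arrays 5, 7 and 8. The highest knockout array was below the lowest wild-type array. Satb1 fell by 1.08 ± 0.18 (SE) on the log2 scale, a 2.12-fold fall (limma adjusted p = 0.00669), and this call was lost without knockout 8 (adjusted p = 0.0535). The probe set 1416008_at gave 1729, 2252 and 1994 on knockout arrays, against 3632, 4438 and 2567 on wild-type arrays, also without overlap. Its difference was -0.80 ± 0.21 (limma adjusted p = 0.0551; adjusted p = 0.0349 with arrays paired by number). The probe set 1436182_at gave 2009, 1457 and 1468 on knockout arrays, against 3864, 5621 and 1760 on wild-type arrays, and the groups overlapped because wild type 8 lay below knockout 5. Its difference was -1.04 ± 0.32 (limma adjusted p = 0.0956), and it was -1.51 (adjusted p = 0.00314) when wild type 8 was dropped.

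Ikaros, encoded by Ikzf1, and Helios, encoded by Ikzf2, are zinc finger proteins that recruit the NuRD remodelling complex. The Ikzf1 probe set 1421303_at gave 125, 55.1 and 120 on knockout arrays, against 213, 102 and 41.2 on wild-type arrays. The Ikzf2 probe set 1421643_at gave 15.4, 22.2 and 13.8 on knockout arrays, against 21.7, 19.1 and 13.1 on wild-type arrays. The brightest Bacillus control was 100.2 to 162 over the arrays, with Ikzf2 far below it and Ikzf1 on either side, so neither gene was measurable in either group with these probe sets. For Ikzf1, 1 of 3 knockout and 1 of 3 wild-type arrays exceeded the control of their own array, and for Ikzf2 0 of 3 and 0 of 3 did.

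Bcl11a, a zinc finger repressor needed for B cell development and known for silencing fetal globin, lay below wild type and missed the threshold. Its probe set 1419406_a_at gave 1287, 1391 and 1674 on knockout arrays, against 2319, 2109 and 2296 on wild-type arrays. The groups did not overlap. The difference was -0.63 ± 0.18 (95% interval -1.01 to -0.25; limma adjusted p = 0.0711), and it passed under 0 of 16 alternatives. Its dimmer probe set 1426552_a_at, at 73.7 to 160 on knockout arrays and 125 to 216 on wild-type arrays, was not tested.

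Mef2c is a MADS-box factor that in mice favours lymphoid over myeloid fate in early progenitors. Its probe set 1424852_at gave 2502, 3083 and 2832 on knockout arrays, against 7620, 7969 and 3965 on wild-type arrays. All knockout arrays were lower, and wild type 8 stood well below the other wild-type arrays. The fall was 2.22-fold, a difference of -1.15 ± 0.24 (limma adjusted p = 0.0197). The call did not hold when knockout 5 or 8 or wild type 5 or 7 was left out (adjusted p up to 0.0945), without the brightness filter (0.0648) and with eBayes without trend (0.0759). The probe set 1451507_at gave 385, 676 and 801 on knockout arrays, against 1567, 1567 and 923 on wild-type arrays, again without overlap. It fell by 1.13 ± 0.28 (limma adjusted p = 0.0463), and the adjusted p was 0.0518 when arrays were paired by number. That call was lost under 11 of 16 alternatives, including 5 of the 6 fits with 1 array left out (all but that without wild type 8), and with median centring it was 0.0768.

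The other Mef2c probe sets showed smaller differences. That of 1451506_at was -0.68 ± 0.26, with 226 to 298 on knockout arrays and 372 to 531 on wild-type arrays, without overlap (limma adjusted p = 0.171). Those of 1421027_a_at and 1421028_a_at were -0.40 ± 0.27 and -0.31 ± 0.30, and their groups overlapped (adjusted p = 0.451 and 0.633). Whether the probe sets of Mef2c differ from each other was not tested.

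Notch1 encodes the receptor whose cleaved intracellular part joins RBPJ on DNA. Its probe set 1418634_at gave 1748, 1571 and 1309 on knockout arrays, against 2698, 3901 and 2298 on wild-type arrays. The groups did not overlap, and wild type 7 was the highest array. Notch1 fell by 0.91 ± 0.21, or 1.88-fold (limma adjusted p = 0.0348). Of the 6 fits on 5 arrays the call held in the 1 that dropped wild type 8 (adjusted p up to 0.157 in the others), and it was lost with median centring (0.0548), with no brightness filter (0.0758) and with eBayes without trend (0.0956). The dimmer probe set 1418633_at gave 376, 413 and 221 on knockout arrays, against 314, 386 and 268 on wild-type arrays. Its difference was 0.03 ± 0.29 (95% interval -0.60 to 0.66; limma adjusted p = 0.976). Whether the probe sets of Notch1 differ from each other was not tested.

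Lef1, an HMG-box factor that works with beta-catenin and is used by pro-B cells and thymocytes, was not measurable. Its probe set 1421299_a_at gave 42.5, 93.1 and 42.8 on knockout arrays, against 99.9, 63.4 and 56.8 on wild-type arrays. None of these exceeded the brightest Bacillus control of its array.

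Sox4, an HMG-box factor needed for B cell development, had 6 probe sets, of which 4 were tested. The probe set 1419156_at gave 383, 208 and 277 on knockout arrays, against 658, 627 and 502 on wild-type arrays, without overlap. It fell by 1.03 ± 0.26 (limma adjusted p = 0.0491). The call was lost under 11 of 15 alternatives, among them a pseudocount of 1 (adjusted p = 0.0504), median centring (0.0647), and every fit with 1 array left out other than that without knockout 5 (up to 0.180). The brightest probe set, 1433575_at, gave 1025, 983 and 1204 on knockout arrays, against 1624, 2017 and 1251 on wild-type arrays. The groups were parted by a small gap between knockout 8 and wild type 8, and the difference was -0.58 ± 0.21 (limma adjusted p = 0.144).

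The 1419155_a_at probe set of Sox4 varied widely within the knockout group, at 694, 119 and 310 on knockout arrays, against 622, 576 and 425 on wild-type arrays (-0.80 ± 0.45, limma adjusted p = 0.350). That of 1449370_at stood at -0.32 ± 0.30 (adjusted p = 0.617). The 2 untested probe sets lay between 32.4 and 138 on knockout arrays and between 21.0 and 250 on wild-type arrays, with differences of 0.27 and 0.11.

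Ets1, the founding member of the ETS family and a factor of T, B and NK cell development, had the largest called difference. Its probe set 1452163_at gave 265, 335 and 349 on knockout arrays, against 809, 736 and 677 on wild-type arrays. The groups lay far apart relative to the spread in each, with means of 316 ± 44.7 and 741 ± 66.0 (SD, n = 3 each). Ets1 fell by 1.19 ± 0.22, or 2.29-fold (limma adjusted p = 0.0118), and the call was lost only without wild type 7 (0.0567) among 16 alternatives. The probe set 1426725_s_at gave 282, 299 and 201 on knockout arrays, against 759, 599 and 452 on wild-type arrays. It fell by 1.15 ± 0.27 (limma adjusted p = 0.0335), and of the 6 fits on 5 arrays it passed in the 1 without wild type 8 (adjusted p up to 0.131 in the others). Its suffix marks probes that can match more than 1 transcript. The dimmer 1422028_a_at stood at -0.33 ± 0.33 (adjusted p = 0.651), and 1422027_a_at, at 142 to 175 on knockout arrays and 156 to 198 on wild-type arrays, was not tested.

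Myb, a transcription factor used in blood progenitors, was lower without passing the test. Its probe set 1421317_x_at gave 2205, 2391 and 2039 on knockout arrays, against 3255, 2909 and 2746 on wild-type arrays. The groups did not overlap, and the difference was -0.42 ± 0.17 (95% interval -0.78 to -0.06; limma adjusted p = 0.180). The probe set 1422734_a_at gave 388, 399 and 365 on knockout arrays, against 485, 521 and 491 on wild-type arrays, also without overlap (-0.36 ± 0.22, adjusted p = 0.384). That of 1450194_a_at stood at -0.25 ± 0.19, with overlapping groups (adjusted p = 0.513). No Myb probe set passed under any alternative, and the intervals do not exclude falls of up to 0.83 on the log2 scale.

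**Figure D2:**
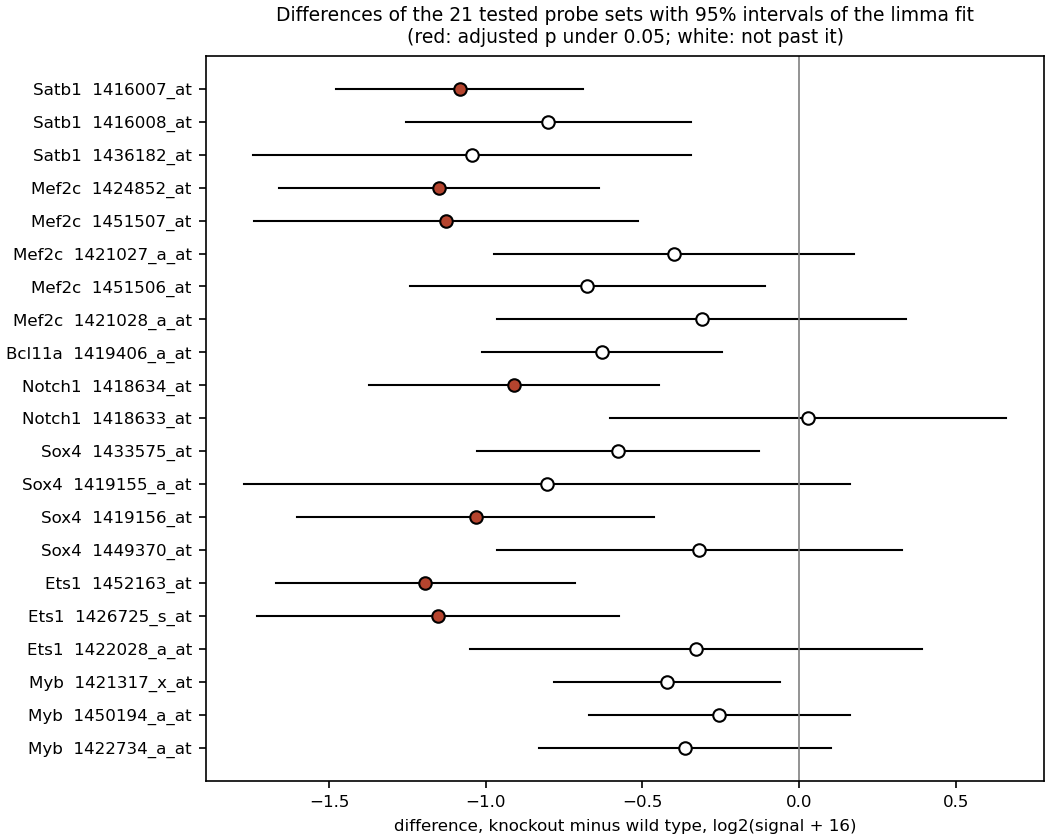
Differences of the 21 tested probe sets, knockout minus wild type on the log2(signal + 16) scale, as points with 95% intervals of the limma fit, red where the adjusted p was under 0.05. The 7 red points lie between -1.19 and -0.91, and 1 of the 21 points, Notch1 1418633_at at 0.03, lies above 0.

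Wild type 8 was the lowest wild-type array for 17 of the 21 tested member probe sets (81.0%), and the highest for 0. Over all tested probe sets it was the lowest for 33.8%. Among knockout arrays, number 8 was lowest for 9 of the 21, number 5 for 7 and number 7 for 5. Between arrays of the same number, the median difference of the 21 probe sets was -0.66 for number 5, -0.97 for number 7 and -0.43 for number 8. Of 13 tested genes on a list of lymphoid genes outside the members, wild type 8 was the lowest wild-type array for 8, and Ltb was highest there. The values of 2 of the 8, chosen after they were seen, were as follows. Rag1, a subunit of the recombinase, gave 327, 527 and 284 on knockout arrays and 2133, 1203 and 227 on wild-type arrays 5, 7 and 8. Dntt, the terminal transferase of early lymphocytes, gave 17623, 6281 and 10690 on knockout arrays and 41083, 32892 and 20945 on wild-type arrays. The summed signal of 11 erythroid markers was 33954 on wild type 8 and 19058 and 19590 on wild type 7 and 5. The part of these signals in the member values was not tested.

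**Figure D3:**
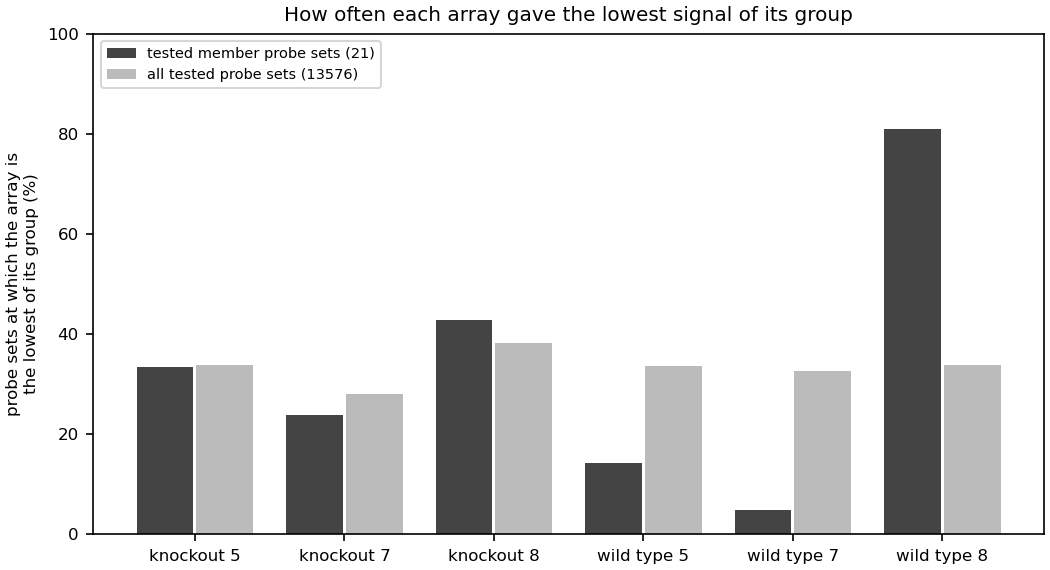
Share of probe sets, in percent, at which each array gave the lowest signal of its own group, for the 21 tested member probe sets (dark) and all 13576 tested (light). Wild type 8 reaches 81.0% among the members and 33.8% among all tested probe sets.

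Some lymphoid genes outside the members fell. Over 10 lists of related genes, 111 of 151 measured genes were tested by their brightest probe set, and 9 fell and 1 rose. Over all tested probe sets, which are not limited to the brightest of each gene, 2.15% were lower and 1.45% higher. These 10 calls became 6, 4 and 6 when knockout 5, 7 or 8 was dropped, and 4 when wild type 7 was. Of the 13 tested lymphoid genes, 6 fell and 0 rose, 7 did not pass, and their median was -1.17 (-0.63 when wild type 5 was dropped). They were Il7r, the interleukin-7 receptor (-1.97 ± 0.28), Flt3, a receptor tyrosine kinase of lymphoid-primed progenitors (-1.19 ± 0.20), Gimap6, a GTPase (-1.32 ± 0.19), Ltb, and 2 genes chosen after their values were seen, Dntt (-1.53 ± 0.31) and Ccr9, a chemokine receptor that guides cells to the thymus (-1.49 ± 0.36). Ltb, which encodes lymphotoxin beta, gave 15.8, 58.8 and 56.3 on knockout arrays, all below the Bacillus control, and 353, 571 and 818 on wild-type arrays. It was at least 3.75-fold lower (limma adjusted p = 0.0015). Ccr9 gave 151, 165 and 81.9 on knockout arrays, near the Bacillus control and above it on 1, so the size of its fall is uncertain. On wild-type arrays it gave 607, 316 and 303. The knockout means of Ltb and Ccr9, 43.6 and 133, lay under the lowest mean signal tested, 209.5. Both genes thus entered the test only through their wild-type signals. Without the brightness filter the limma adjusted p was 0.0129 for Ltb and 0.108 for Ccr9. The probe sets of Dntt and Ccr9 end in _x_at, and the alternative fit without such probe sets did not test them. Il7r, Flt3, Gimap6 and Ltb passed with any 1 array left out, Dntt only without knockout 5 or wild type 8 and Ccr9 only without wild type 8.

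In the Notch pathway list 0 of 22 tested genes passed, and the median was -0.18. Mfng, a glycosyltransferase that modifies Notch receptors, gave a mean of 2928 ± 382 on knockout arrays and 4894 ± 989 on wild-type arrays (SD, n = 3 each; difference -0.73 ± 0.19, limma adjusted p = 0.0507). Nrarp, a Notch target that feeds back on the pathway, stood at -0.81 ± 0.22 (adjusted p = 0.059), Rbpj at -0.49 ± 0.19 (0.166) and Jag2, a ligand, at -0.62 ± 0.25 (0.190). Among 12 tested TCF and LEF partners 0 passed, with a median of -0.11. The corepressor Tle4 stood at -0.61 ± 0.19 (adjusted p = 0.102) and the beta-catenin coactivator Bcl9l at -0.57 ± 0.20 (0.134).

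The Ikaros family and NuRD list had 11 tested genes, of which 1 fell and 0 rose, and their median was 0.14 (0.05 when wild type 7 was dropped). The gene was Mta3, a NuRD subunit, at 378, 353 and 663 on knockout arrays and 1177, 1135 and 931 on wild-type arrays (-1.24 ± 0.25, limma adjusted p = 0.0178). Its call did not hold when knockout 5, knockout 7 or wild type 7 was dropped (adjusted p up to 0.0788). The relatives Mta1 and Mta2 stood at 0.33 ± 0.20 and 0.22 ± 0.17 (adjusted p = 0.395 and 0.524). Of 8 tested relatives of Satb1 and Bcl11a and subunits of the BAF remodelling complex 0 passed, with a median of 0.14 and differences from -0.35 to 0.33.

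Among 15 tested ETS family genes 0 passed, with a median of -0.10, and 2 fell when arrays were paired by number. These were Elk4 at -0.69 ± 0.21 (limma adjusted p = 0.0887, blocked 0.0346) and Elf1 at -0.65 ± 0.20 (0.0908, blocked 0.042). Of 6 tested MEF2 relatives and class IIa deacetylases 1 fell, Mef2a, at a mean of 1380 ± 123 on knockout arrays and 2331 ± 356 on wild-type arrays (SD, n = 3 each; -0.74 ± 0.18, limma adjusted p = 0.0445). Of the fits on 5 arrays it passed in the 1 without wild type 8 (adjusted p up to 0.177 in the others), and with median centring it was 0.0918. None of 4 tested SOX genes and none of 4 tested genes of the MYB family and coactivators passed. The coactivator Crebbp stood at -0.95 ± 0.28 (adjusted p = 0.0798).

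Other early lymphoid factors included 16 tested genes, of which 1 fell and 1 rose, with a median of -0.25. Zeb1, a zinc finger repressor needed for T cell development, fell by 1.14 ± 0.24 (limma adjusted p = 0.0205), with 3421, 2255 and 2121 on knockout arrays and 5022, 7987 and 4441 on wild-type arrays. Id1, an inhibitor of E proteins, rose by 1.29 ± 0.27 (adjusted p = 0.0227), with 766, 520 and 414 on knockout arrays and 201, 234 and 213 on wild-type arrays. The call of Zeb1 did not hold when knockout 7, knockout 8 or wild type 7 was dropped (adjusted p up to 0.114), nor that of Id1 when knockout 5, knockout 7 or wild type 7 was (up to 0.0891). Tcf12, an E protein, stood at -0.65 ± 0.20 (adjusted p = 0.0885).

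**Figure D4:**
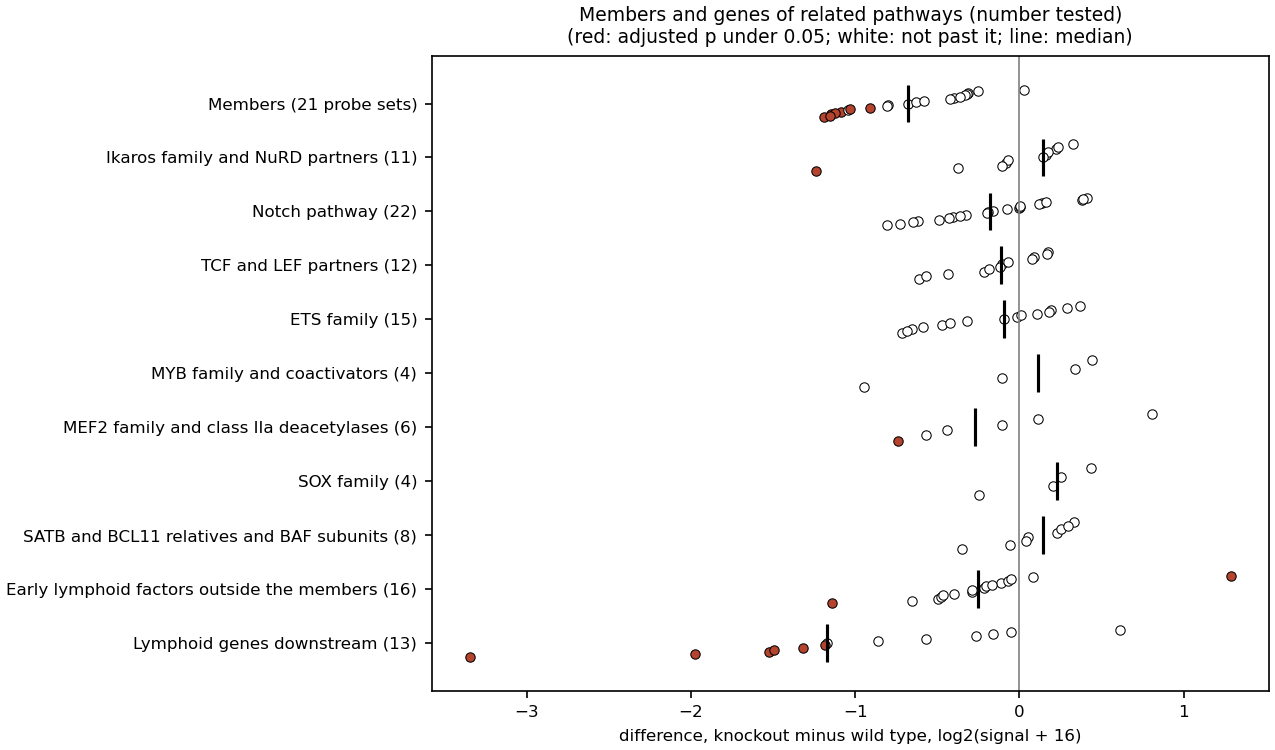
Differences on the log2(signal + 16) scale of the 21 member probe sets and of the tested genes of 10 related lists, 1 point per probe set or gene, red where the adjusted p was under 0.05 and with the median as a line. Red points are most frequent among the members and among the lymphoid genes, which reach -3.35 with Ltb, and the medians of the partner lists lie between -0.27 and 0.23.

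**Figure D5:**
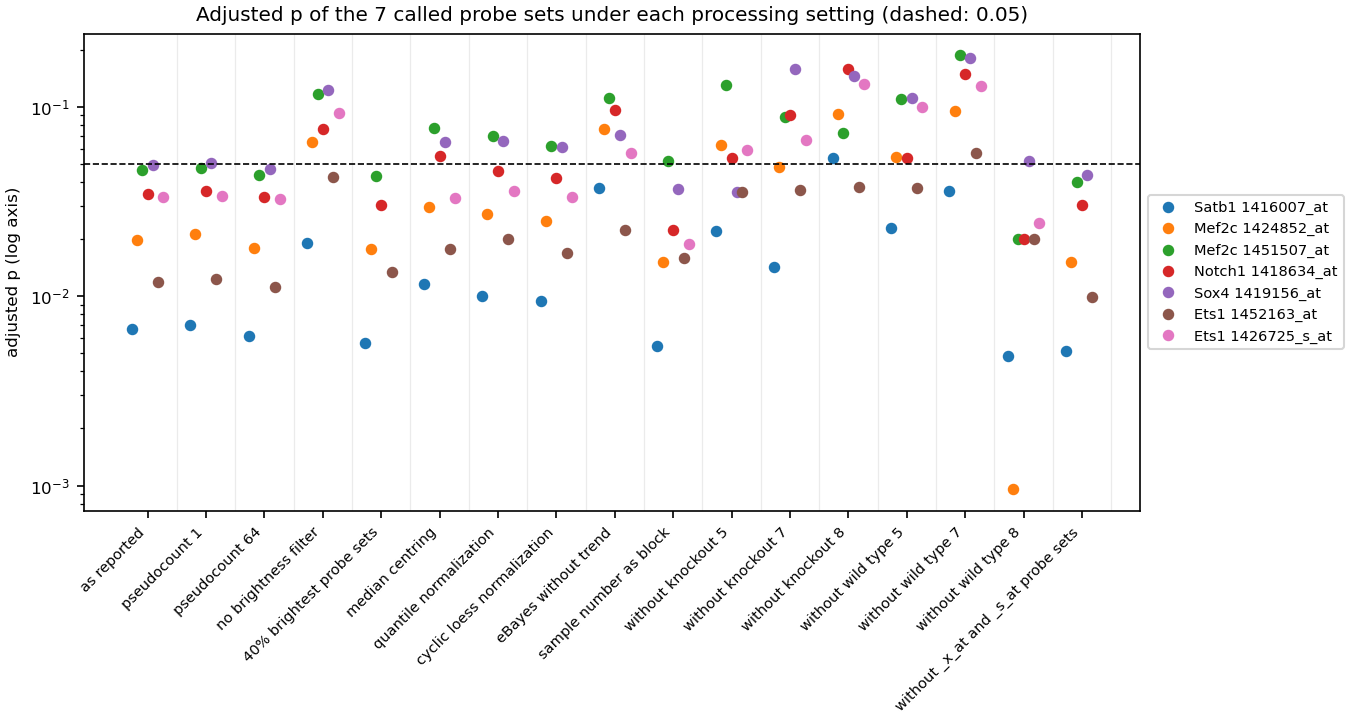
Adjusted p, on a log axis, of the 7 called member probe sets as reported and under each of the 14 to 16 alternatives that tested it, with a dashed line at 0.05. Satb1 1416007_at and Ets1 1452163_at are under the line for all but 1 alternative each. Each of the others is above it for most fits with 1 array left out.

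The arrays and the markers of other cells set the frame for these values. Across probe sets, the log2 signals of arrays of 1 group correlated at 0.955 to 0.969, and those of arrays of different groups at 0.947 to 0.963. The signal of Gfi1 itself was not reduced on knockout-labelled arrays, with 692, 1163 and 1737 there, against 632, 608 and 723 on wild-type arrays (0.76 ± 0.28, limma adjusted p = 0.148, and 1.10 with 0.0348 when knockout 5 was dropped). Whether its probe set lies in the deleted part is not given in the labels, so every direction rests on those labels. Kit, by which the cells were sorted, gave 3512, 4669 and 4496 on knockout arrays and 5871, 7052 and 7774 on wild-type arrays. It fell by 0.71 ± 0.17 (limma adjusted p = 0.0407), and of the fits on 5 arrays it passed in the 1 that dropped wild type 5 (adjusted p up to 0.135 in the others), while median centring gave 0.107. Of 10 tested LSK markers 3 fell, Kit, Hlf and Mycn, and 0 rose, and the 10 summed to 42898 to 44590 on knockout arrays and 52458 to 60112 on wild-type arrays. Among 9 tested neutrophil markers 4 fell (7 with arrays paired by number) and 1 rose, and the 12 measured summed to 7464 to 15094 on knockout arrays and 21177 to 42219 on wild-type arrays. Of 10 tested monocyte markers 0 fell and 3 rose, and the 13 measured summed to 33156 to 38562 on knockout arrays and 19781 to 25901 on wild-type arrays. Of 9 tested erythroid markers 1 fell, and the 11 measured summed to 8914 to 10963 on knockout arrays and 19058 to 33954 on wild-type arrays. The hemoglobin genes Hbb-b2 and Hba-a1 were too dim to be tested and did not follow that sum. Hbb-b2 had a mean of 102 on knockout and 46.1 on wild-type arrays, with 0 of 3 and 0 of 3 above the Bacillus control. Hba-a1 had means of 176 and 121, with 2 of 3 and 2 of 3 above it. Of 5 tested mast cell and basophil markers 1 rose (2 with arrays paired by number), and the 9 measured summed to 8321 to 10947 on knockout arrays and 5025 to 7523 on wild-type arrays. Of 8 tested B cell markers 0 passed and 8 lay below 0, with a sum of 1821 to 2434 on knockout arrays and 2692 to 3675 on wild-type arrays. Of 14 measured T cell markers 5 were tested and 0 passed. The T cell receptor subunits Cd3d and Cd3e were too dim to be tested. Cd3d gave 45.9 to 84.3 on knockout arrays and 53.4 to 188 on wild-type arrays, and Cd3e 52.8 to 210 and 34.3 to 166. Cd3d exceeded the Bacillus control of its array on 0 of 3 knockout and 1 of 3 wild-type arrays. Cd3e did so on 1 of 3 and 1 of 3. Some measured markers lay at or below the Bacillus control on all 6 arrays. These were 3 T cell markers, 1 erythroid marker and 1 mast cell and basophil marker. The part of cells of these types in the member differences was not tested.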

How the data were processed

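The 6 arrays measured LSK cells, 3 Gfi1 knockout and 3 wild type. The authors deposited an intensity on a linear scale for each probe set, made with MAS5 per the submitters' processing notes. What settings it ran with is not given in the sources used here, and each column was already scaled to a 2% trimmed mean of 1000.33 to 1000.37. Amplification in 2 rounds favours 3' ends, so probe sets of 1 gene can differ. The number of arrays limits the precision.

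After 64 controls were dropped, the brightest 60% by mean signal were tested as log2(signal + 16) with limma 3.58.1 in R 4.3.3 (lmFit, eBayes with trend, two-sided, Benjamini-Hochberg over all tested, threshold 0.05). This scale understates dim changes. The fit was tested on simulated data. "At least" folds use the brightest of 27 Bacillus controls per array as floor. Members and lists were chosen with earlier results of these data known. The text names every member probe set, Gfi1, up to 4 genes per related list with the smallest p and the first measured markers, though not all are printed. Same-numbered arrays deviated together (r = 0.148, 0.161 and 0.239 for numbers 5, 7 and 8, and -0.13 to -0.0239 for different numbers). Deviations were taken from group means, which ties these r to each other, so those for different numbers are no separate comparison. A replicate block was therefore an alternative, beside other pseudocounts, filters, normalizations, eBayes without trend and each array left out.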

Additional observations from a re-analysis of the deposited data

How the results depend on the processing

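The 7 member calls numbered 2 without the brightness filter, 4 with median centring, 2 with eBayes without trend, and 1 to 8 with 1 array left out. The replicate block left the count at 7, with Satb1 1416008_at in place of Mef2c 1451507_at, 6 being shared, and changed no other call of a member. Of the list genes, it added Elf1 and Elk4 among those named. No member was called higher in any of the 16 alternatives. Over the whole table the 292 lower calls became 119 without the filter, 191 with median centring, 116 without trend and 461 with the replicate block, and the 197 higher calls became 69 without the filter, 57 without trend and 312 with the block. With 1 array left out they ranged from 86 to 275 lower and 31 to 255 higher. The 10 called list genes became 4 without the filter, 5 without trend, and 4 to 14 with 1 array left out. Member differences that passed or missed the threshold otherwise kept their sign, apart from Notch1 1418633_at, which ranged from -0.14 to 0.29 and was below 0 without knockout 5, knockout 7 or wild type 8. Among list genes and markers that did not pass, Camk4 ranged from -0.13 to 1.54, Sox5 from -0.51 to 0.0608 and Sox10 from -0.24 to 0.47 with 1 array left out. Jchain turned to -0.00618 with cyclic loess. With 1 array left out, Jchain ranged from -0.23 to 0.21, Pf4 from -0.75 to 0.0257 and Cd34 from -0.20 to 0.0228. No SOX median could be had from the 40% brightest probe sets. Signals near the Bacillus control limit what can be said of Ikzf1, Ikzf2 and Lef1.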
